A study of Mus musculus with 6 samples.

Results

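Heat shock genes encode chaperones, proteins that hold, refold or assemble other proteins, and the set described here held 10 genes chosen by symbol from the 18268 genes of the deposited table. All 10 were present and all 10 passed the filter on low values. Bulk RNA sequencing of colorectal tissue gave their transcript levels in 6 adult male C57BL/6 mice. Dextran sulfate sodium (DSS), which damages the colonic epithelium and provokes colitis, was given to every mouse for 7 days. For 6 of these days 3 mice were gavaged with the plant alkaloid berberine (BBR) and 3 with sulfasalazine (SASP), a drug prescribed for ulcerative colitis that gut bacteria split into its active parts. Both groups shared strain, DSS and route, and differed in the drug and, by the study's methods, in its dose. No group without DSS or without a drug was analysed here, so each difference is between the drugs.

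In unstressed cells the transcription factor HSF1 is held inactive by chaperones. When unfolded proteins occupy those chaperones, HSF1 forms trimers, binds heat shock elements in promoters and raises transcription of chaperone genes. The products work as a relay. HSP40 proteins such as Dnajb1 deliver clients to HSP70 (Hspa1a, Hspa1b and the constitutive Hspa8), Hsph1 helps HSP70 to exchange its nucleotide, and HSP90 (Hsp90aa1) matures kinases and hormone receptors. Hspb1 is a small heat shock protein that keeps unfolding proteins soluble and is abundant in muscle. Hspd1 and Hspe1 form the barrel and the lid of the chaperonin of the mitochondrial matrix. In the colon, chaperones serve a rapidly renewing and secretory epithelium as well as the muscle wall.

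The promoters of some of these genes share sequence. RefSeq windows on GRCm38.p6, running from 250 bases before to 50 bases after an annotated start, were matched by gene ID for 7 of the 10 genes. Hspa8, Hsp90aa1 and Hsf1 were not among them. Windows were searched on both strands for the 2-unit heat shock element (GAANNTTC or TTCNNGAA, each its own reverse complement) and the 3-unit element, in which either form is followed by any 2 bases and a further alternating GAA or TTC, so that it contains the 2-unit forms. The next lines give the stretches that matter, 5′ to 3′, with matched letters in capitals. The first is the whole interval between the divergent starts of Hspd1 and Hspe1 (chr1:55087933-55088147, plus strand, read towards Hspe1). The others are the 150 bases before the start of Hspa1b (chr17:34959239-34959388, minus strand), before the upstream start of Hsph1 (chr5:149636337-149636486, minus strand) and before the start of Hspb1 (chr5:135887769-135887918, plus strand).
Hspd1-Hspe1: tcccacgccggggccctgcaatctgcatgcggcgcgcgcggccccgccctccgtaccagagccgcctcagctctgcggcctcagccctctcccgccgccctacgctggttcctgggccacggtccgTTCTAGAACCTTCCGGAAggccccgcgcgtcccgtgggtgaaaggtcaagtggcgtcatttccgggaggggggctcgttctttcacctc
Hspa1b: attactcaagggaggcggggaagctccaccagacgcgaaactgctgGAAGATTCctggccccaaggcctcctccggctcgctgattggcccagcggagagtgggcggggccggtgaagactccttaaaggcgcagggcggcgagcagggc
Hsph1: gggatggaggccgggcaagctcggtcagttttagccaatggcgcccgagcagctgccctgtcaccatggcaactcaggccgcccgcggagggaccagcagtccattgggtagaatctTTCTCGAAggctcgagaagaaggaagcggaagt
Hspb1: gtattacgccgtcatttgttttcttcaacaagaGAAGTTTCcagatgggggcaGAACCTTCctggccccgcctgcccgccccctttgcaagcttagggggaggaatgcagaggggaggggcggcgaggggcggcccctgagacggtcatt

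Hspd1 and Hspe1 start 216 bases apart and run in opposite directions, so the 1 run of 4 alternating units (18 bases) between them lies before both starts. It begins 89 bases before the start of Hspe1, and its other end lies 144 bases before the start of Hspd1, read on the opposite strand. A further annotated start of Hspd1 lay beyond the start of Hspe1, so this layout does not hold for it. The window of that further start (chr1:55088194-55088493) had no match and does not reach the run. The windows of Hspa1a and Hspa1b differed at 4 of 300 bases, and each held 1 match at 104 bases before the start. Hspb1 held 2 matches, at 117 and 97 bases before the start. In Hsph1, 1 match lay 33 bases before the upstream start, and a 3-unit match followed in the transcribed part. No match was found in the windows of Dnajb1. At least 1 window held a 2-unit element in 6 of the 7 genes and a 3-unit element in 3 of them, where 14% and 0.598% of the 9699 tested genes with a window did. These counts are not independent, as Hspd1 and Hspe1 share 1 run and the Hspa1a and Hspa1b windows are nearly the same. The genes were chosen as heat shock genes, so the shares are a description and were not tested. A match is a description of letters and not a site at which a factor was shown to bind.

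Berberine and sulfasalazine were compared directly, which is the contrast these 6 samples provide. Levels are in FPKM, a read abundance scaled by transcript length and library size, and log2 fold changes are BBR minus SASP on log2(FPKM + 1), tested with limma, which pools the spread between mice across genes. The mitochondrial chaperonin genes Hspd1 and Hspe1 and the HSP90 gene Hsp90aa1 were lower in BBR than in SASP mice. In the other direction 0 genes of the set passed the threshold. The value farthest in that direction was that of Hspb1, at 1.40 on the log2 scale (adjusted p = 0.0607). Thus 3 of 10 genes passed the threshold (adjusted p under 0.05, limma), where 8.86% of the 12072 tested genes did. All 3 were lower in BBR, a direction called for 5.04% of tested genes, and 0 were higher, a direction called for 3.82%. At an unadjusted p under 0.05 there were 8 of 10 genes, against 31.8% of tested genes. Of these 6 were lower and 2 higher, against 13.4% and 18.4% of tested genes. In 7 of the 10 genes the values of both groups did not overlap, against 37.9% of tested genes. In 6 of these 7 the BBR values lay below the SASP values (16.6% of tested genes), and in Hspb1 they lay above (21.3%). The median log2 fold change was -0.60 over the 10 genes and 0.10 over all tested genes. In bulk tissue, fewer cells of a type and less RNA per cell cannot be told apart.

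**Figure D1:**
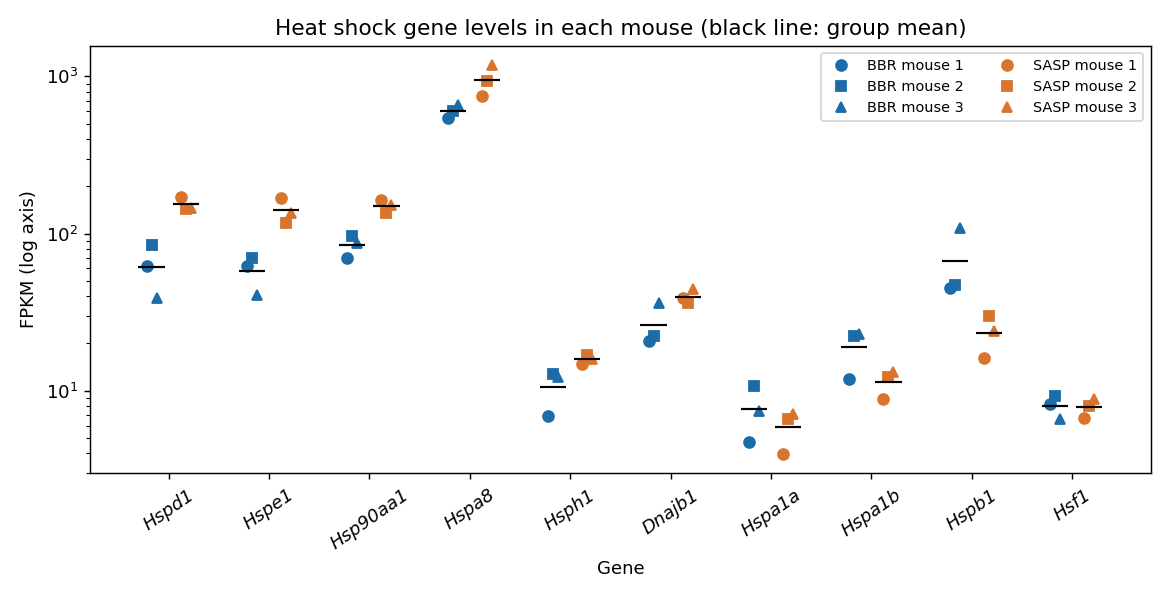
FPKM of the 10 heat shock genes (log axis) in each of 3 BBR mice (blue) and 3 SASP mice (orange), with the group mean as a black line. Hspd1, Hspe1 and Hsp90aa1 are separated by group, from 38.70 to 96.21 FPKM in BBR and from 117.38 to 171.79 FPKM in SASP mice, while Hspa1a and Hsf1 overlap.

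The mitochondrial chaperonin genes showed the largest differences toward SASP. Hspd1 (Gene ID 15510), which encodes HSP60, was at 61.94, 84.05 and 38.70 FPKM in BBR mice 1, 2 and 3 and at 171.79, 144.02 and 144.88 FPKM in SASP mice 1, 2 and 3. Every BBR value was below every SASP value, and BBR mouse 3 was the lowest of all. The SASP mean was 2.49 times the BBR mean, and the log2 fold change was -1.37 (SE 0.26, 95% interval -1.99 to -0.75, limma adjusted p = 0.0294). Hspe1 (15528), which encodes the HSP10 lid, was at 62.05, 70.37 and 40.40 FPKM with BBR against 168.98, 117.38 and 134.25 FPKM with SASP. The groups were again apart, with the same mouse lowest. The log2 fold change was -1.29 (SE 0.23, 95% interval -1.83 to -0.75, adjusted p = 0.0247).

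The ratio of Hspd1 to Hspe1 was close to 1 in every mouse, at 0.998, 1.19 and 0.958 in BBR and 1.02, 1.23 and 1.08 in SASP mice. The groups overlapped, and the mean log2 difference of -0.08 did not pass (exact permutation test, two-sided p = 0.5, with 0.1 the smallest p that 3 against 3 mice allow). Over the 5 ratios examined, its Benjamini-Hochberg adjusted p was 0.833.

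Hsp90aa1 (15519), the stress-inducible HSP90 gene, was at 69.46, 96.21 and 87.17 FPKM with BBR against 163.07, 135.34 and 151.20 FPKM with SASP. The highest BBR value was below the lowest SASP value. The log2 fold change was -0.83 (SE 0.15, 95% interval -1.18 to -0.49, adjusted p = 0.0243). Its constitutive relative Hsp90ab1 was at 339.58, 405.70 and 202.11 FPKM with BBR against 451.89, 379.66 and 427.74 FPKM with SASP, which overlapped (log2 fold change -0.47, adjusted p = 0.248). Within a mouse the ratio of Hsp90aa1 to Hsp90ab1 was nearly the same in the SASP mice, at 0.361, 0.357 and 0.354, and spread in the BBR mice, at 0.205, 0.237 and 0.431. BBR mouse 3 was the highest of all 6. The mean log2 difference of -0.37 had an exact permutation p of 0.4 (two-sided, adjusted p = 0.833 over the 5 ratios). It rested on single mice, at -0.70 without BBR mouse 3 (p = 0.1, the smallest possible by the exact test) and -0.16 without BBR mouse 1. Whether the inducible form differs more than the constitutive form was not resolved.

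The calls of these 3 genes depended on single mice. Without BBR mouse 1, SASP mouse 1 or SASP mouse 3 the adjusted p lay between 0.0685 and 0.127 for all 3. Without SASP mouse 2 it was 0.0731 for Hspd1, 0.0503 for Hsp90aa1 and 0.0495 for Hspe1. Calls over all tested genes varied too, at 131 without BBR mouse 1, 59 without SASP mouse 1, 405 without SASP mouse 2 and 51 without SASP mouse 3. Leaving out 1 mouse at a time kept the log2 fold change between -1.62 and -1.07 for Hspd1, between -1.45 and -1.06 for Hspe1 and between -0.93 and -0.70 for Hsp90aa1.

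**Figure D2:**
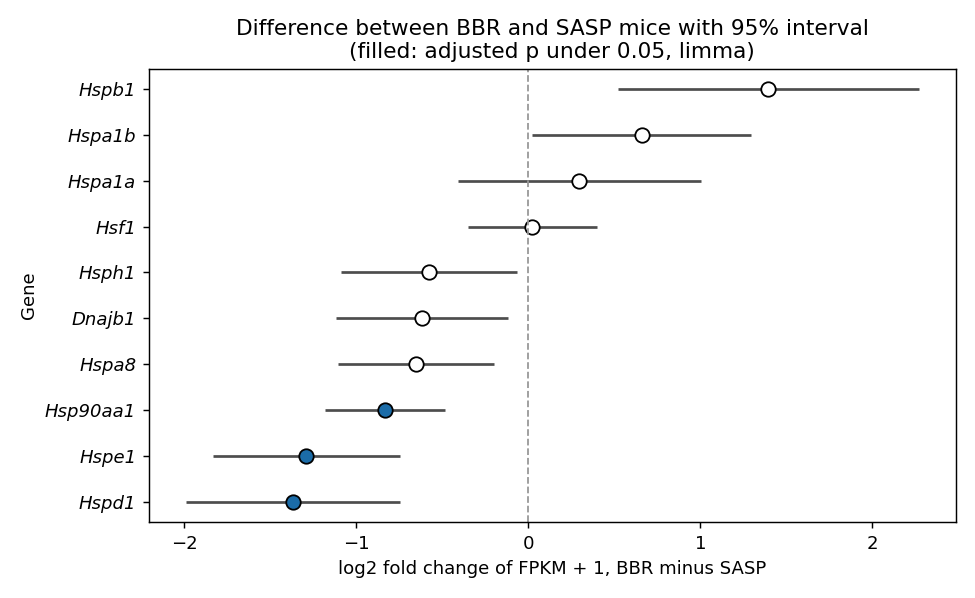
Difference between BBR and SASP mice for each heat shock gene as a log2 fold change of FPKM + 1 (point) with its 95% interval (line), filled where the adjusted p was under 0.05. Hspd1, Hspe1 and Hsp90aa1 are filled, at -1.37, -1.29 and -0.83, and Hspb1 lies farthest to the other side at 1.40.

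Cell division genes moved with the chaperonin genes. The 8 proliferation markers (such as Mki67 and Top2a) summed to 66.8 to 112 FPKM in BBR and 204 to 272 FPKM in SASP mice, with BBR mouse 3 lowest as it was for Hspd1 and Hspe1. All 8 had negative log2 fold changes, where 4735 of the 12072 tested genes did. Of the 8 markers, 5 passed the threshold, in a direction called for 5.04% of tested genes, and none was at 0. Their part in the difference of the chaperonin genes was not tested.

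The constitutive and inducible HSP70 genes lay on opposite sides of 0 in their log2 fold changes, and none passed the threshold. Hspa8 (15481), the constitutive cytosolic HSP70, was the most abundant gene of the set, with a mean level above that of 99.5% of tested genes. It was at 539.56, 601.18 and 654.19 FPKM with BBR against 752.60, 933.05 and 1175.41 FPKM with SASP. The groups did not overlap, but the difference missed the threshold (log2 fold change -0.65, SE 0.19, 95% interval -1.11 to -0.20, adjusted p = 0.0746, and 0.0339 without BBR mouse 3). In the fit without that mouse 4018 of 11878 tested genes passed. The inducible Hspa1a (193740) was far less abundant. Its BBR values were 4.72, 10.70 and 7.43 FPKM, its SASP values were 3.97, 6.57 and 7.07 FPKM, and the groups overlapped (log2 fold change 0.30, 95% interval -0.41 to 1.00, adjusted p = 0.513). Hspa1b (15511), its neighbour and near-copy, measured 11.86, 22.40 and 23.05 FPKM with BBR against 8.86, 12.25 and 13.08 FPKM with SASP. Here BBR mouse 1 lay among the SASP mice (log2 fold change 0.66, 95% interval 0.02 to 1.30, adjusted p = 0.148).

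Reads cannot be assigned securely between these genes. Of the 50-base words in the longest GENCODE M21 transcript, 58.8% of those of Hspa1a also occurred in Hspa1b. Summed as 1 gene they gave 16.58, 33.10 and 30.48 FPKM with BBR against 12.83, 18.82 and 20.15 FPKM with SASP, and the difference again missed the threshold (log2 fold change 0.57, SE 0.28, adjusted p = 0.211). The direction of Hspa1a itself was not stable, as it was -0.30 with array quality weights, which give less weight to mice that stand apart, and -0.20 with a smooth muscle covariate. The log2 fold change of Hspa1b was 0.04 and 0.10 in these fits.

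Relative to Hspa8, the inducible pair was higher in each BBR mouse. The ratio of Hspa1a plus Hspa1b to Hspa8 was 0.0307, 0.0551 and 0.0466 in BBR and 0.0171, 0.0202 and 0.0171 in SASP mice, with no overlap and a mean log2 difference of 1.25. A ratio within a library does not tell which of its genes differs. The exact permutation test gave p = 0.1 (two-sided), the smallest it can give, and an adjusted p of 0.5 over the 5 ratios. The difference stayed between 1.07 and 1.49 when any 1 mouse was left out.

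**Figure D3:**
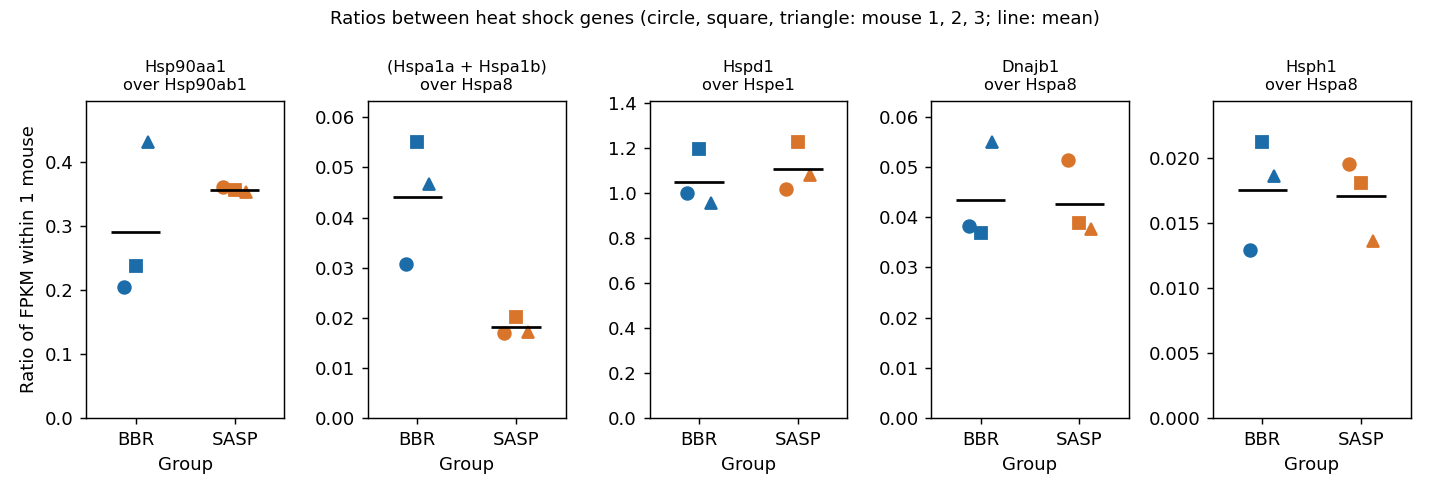
Ratios of FPKM between heat shock genes within each mouse (circle, square and triangle for mouse 1, 2 and 3; line for the mean), with each axis starting at 0. The ratio of Hspa1a plus Hspa1b to Hspa8 does not overlap between groups (0.0307 to 0.0551 against 0.0171 to 0.0202), and the other 4 ratios do.

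Both partners of HSP70 had negative log2 fold changes, as Hspa8 did, and neither passed the threshold. Dnajb1 (81489), the HSP40 that stimulates HSP70, had BBR values of 20.63, 22.19 and 35.97 FPKM and SASP values of 38.71, 36.17 and 44.23 FPKM. The groups were parted by a narrow gap, between BBR mouse 3 and SASP mouse 2. The difference missed the threshold with all mice (log2 fold change -0.62, SE 0.21, adjusted p = 0.102) and passed it without BBR mouse 3 (-0.86, adjusted p = 0.00421). So did 4018 of 11878 tested genes without that mouse. Hsph1 (15505), the nucleotide exchange factor, had BBR values of 6.95, 12.75 and 12.14 FPKM and SASP values of 14.70, 16.84 and 15.99 FPKM, with no overlap (log2 fold change -0.58, SE 0.22, adjusted p = 0.125). Without BBR mouse 1, its lowest sample, the log2 fold change was -0.32. The ratios of Dnajb1 and of Hsph1 to Hspa8 overlapped between groups, with mean log2 differences of 0.02 and 0.03 (exact permutation p = 0.9 and 0.9, adjusted p = 0.9 for both), and these differences changed sign when single mice were left out.

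Hspb1 (15507), the small heat shock gene, was the 1 gene of the set whose BBR values all lay above the SASP values. It was at 44.94, 46.91 and 108.10 FPKM with BBR against 16.06, 29.74 and 24.15 FPKM with SASP. The groups did not overlap, and BBR mouse 3 was the highest of all. The BBR mean was 2.86 times the SASP mean, but the difference missed the threshold (log2 fold change 1.40, SE 0.37, 95% interval 0.52 to 2.27, adjusted p = 0.0607). It passed without BBR mouse 3, at a smaller value (0.99, adjusted p = 0.0243), in a fit where 4018 of 11878 tested genes passed.

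Smooth muscle markers moved with Hspb1. The 10 markers (such as Acta2 and Myh11) summed to 2888, 3046 and 6808 FPKM in BBR mice 1, 2 and 3 and to 757 to 2321 FPKM in SASP mice. All 10 had positive log2 fold changes with a median of 1.32, where 7337 of the 12072 tested genes were positive. Of the 10, 0 passed the threshold in limma. At an unadjusted p under 0.05 there were 8, beside 18.4% of tested genes in that direction, and none was at 0. With the mean log2 level of these markers as a covariate, the log2 fold change of Hspb1 was 0.40 (adjusted p = 0.461), and those of Hspd1, Hspe1 and Hsp90aa1 were nearer to 0 than without it, at -0.87, -0.72 and -0.79 (adjusted p = 0.268, 0.214 and 0.216). Those of Hspa8, Dnajb1 and Hsph1 lay farther from 0 than without the covariate, at -1.003, -0.95 and -0.90 (adjusted p = 0.177, 0.223 and 0.246). In that fit 0 heat shock genes passed, with 6 at an unadjusted p under 0.05, where 0.157% of all tested genes passed and 16.7% had an unadjusted p under 0.05. Every BBR mouse was above every SASP mouse in this covariate, so muscle content and drug cannot be told apart here.

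Hsf1 (15499), the transcription factor of the response, was at 8.23, 9.23 and 6.58 FPKM with BBR against 6.72, 7.97 and 8.82 FPKM with SASP. The groups overlapped fully, with a log2 fold change of 0.02 whose 95% interval ran from -0.35 to 0.40 (adjusted p = 0.925). The activity of HSF1 is set largely by its trimer formation and modification, which transcript levels do not measure. With a value this near 0 its sign carries no information.

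**Figure D4:**
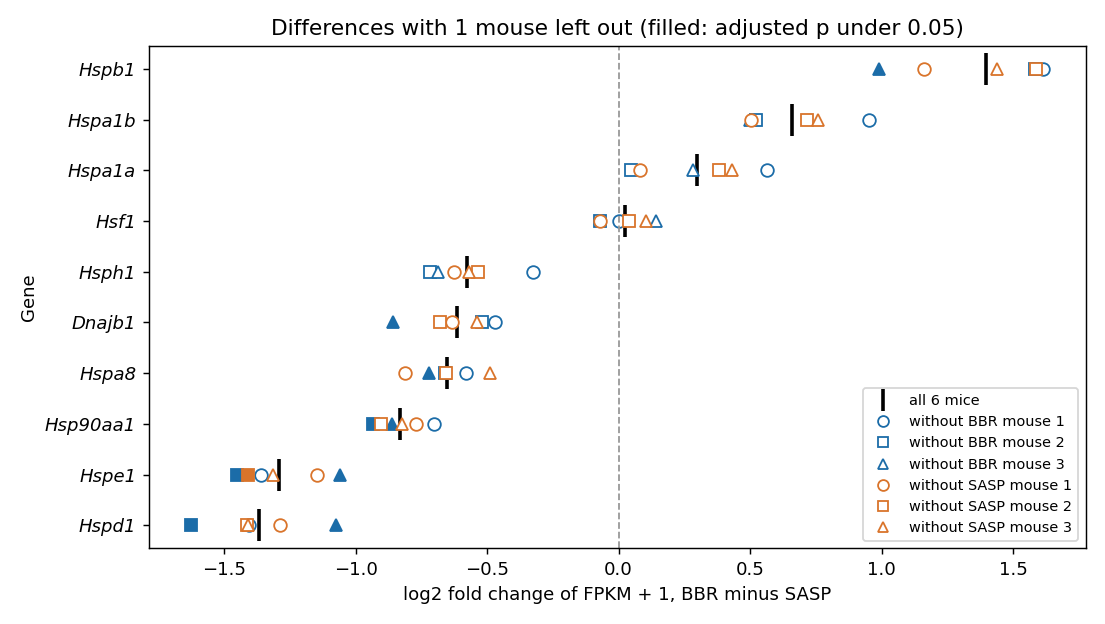
Log2 fold changes of FPKM + 1 (BBR minus SASP) with all 6 mice (black bar) and with each mouse left out (symbols, filled where the adjusted p was under 0.05). The values keep their side of 0 except for Hsf1, while the calls come and go, from 0 genes without BBR mouse 1, SASP mouse 1 or SASP mouse 3 to 6 genes without BBR mouse 3.

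In order of mean level per length, Hspa8 came first by a wide margin, followed in SASP mice by Hspd1 (154 ± 15.8 FPKM, SD, n = 3), Hsp90aa1 (150 ± 13.9) and Hspe1 (140 ± 26.3), which lay within their spread of each other. In BBR mice the next places went to Hsp90aa1 (84.3 ± 13.6), Hspb1 (66.7 ± 35.9), Hspd1 (61.6 ± 22.7) and Hspe1 (57.6 ± 15.5). Hsp90aa1 was above Hspd1 and Hspe1 in each BBR mouse, while the order of Hspb1, Hspd1 and Hspe1 varied between mice. Dnajb1, Hspa1b, Hsph1, Hsf1 and Hspa1a were at or below 44.23 FPKM in every mouse. As a coefficient of variation, the widest gap in spread was that of Hspd1 (36.8% in BBR against 10.3% in SASP mice). Hspa8 had the wider spread in SASP mice (9.59% in BBR against 22.2%). BBR mice were also less alike over all tested genes, with log2 values correlated at 0.949 to 0.987, against 0.982 to 0.989 in SASP mice. Whether the spread of the heat shock genes departs from that of other genes was not tested.

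As a description of pattern, the 3 genes most like Hsph1 over the 6 mice, among tested genes at or above the median level, were AI661453, Flot2 and C2cd2l (Pearson r of 0.992, 0.986 and 0.981 on log2 values). The 3 most like Hspd1 were Alyref, Nup85 and Set (r of 0.999, 0.999 and 0.998). The points share the 6 libraries and the difference between the groups.

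The wider chaperone network was read from the same fit to place these 10 genes. Of 78 further cytosolic and mitochondrial chaperone, co-chaperone and heat shock factor genes, 77 were in the table and 72 were tested. Of these, 5 were higher and 10 lower past the threshold, or 15 of 72 beside the 8.86% of all tested genes. With median-ratio scaling the split was 1 higher and 21 lower. Without BBR mouse 1, 2 or 3 the count was 1, 6 or 30, and without SASP mouse 1, 2 or 3 it was 0, 5 or 0. Over all tested genes the counts in the same fits were 131, 371 or 4018 and 59, 405 or 51. The median log2 fold change was -0.10, where that of all tested genes was 0.10.

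Of the chaperone lists, that of HSP90 and HSP70 co-chaperones was the longest and held the most calls. Of its 19 tested genes, 5 were lower and 2 higher past the threshold, where 5.04% and 3.82% of all tested genes were. Cacybp, which binds ubiquitin ligase components, averaged 16.7 ± 2.60 FPKM with BBR and 37.2 ± 4.39 FPKM with SASP (SD over 3 mice each), a log2 fold change of -1.11 (SE 0.15, adjusted p = 0.0124). Stip1, which bridges HSP70 and HSP90, was lower in BBR by 0.62 on the log2 scale (adjusted p = 0.0186). Ahsa1, the activator of the HSP90 ATPase, was lower by 0.55 (adjusted p = 0.0354). The higher pair, named after their values were seen, were Unc45a, a myosin chaperone (0.57, adjusted p = 0.0426), and Stub1, a ubiquitin ligase that acts on chaperone clients (0.40, adjusted p = 0.0466).

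Some relatives of the HSP70 genes outside the set passed the threshold, while none of the HSP70 genes within it did. Of 7 tested HSP90 and HSP70 relatives, 2 were lower and 0 higher past the threshold, where 5.04% and 3.82% of all tested genes were. Hspa12a, a distant HSP70 relative, averaged 7.84 ± 1.99 FPKM with BBR and 21.3 ± 1.99 FPKM with SASP (log2 fold change -1.35, SE 0.17, adjusted p = 0.0111). Hspa4l, a relative of Hsph1, averaged 7.18 ± 0.638 FPKM with BBR and 15.5 ± 2.91 FPKM with SASP (adjusted p = 0.0173). Among 9 tested J-domain genes 2 were higher and 0 lower, beside 3.82% and 5.04% of all tested genes. The higher ones were Dnajb2 (0.52, adjusted p = 0.0388) and Dnajb5 (0.87, adjusted p = 0.0475).

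The cytosolic chaperonin CCT, which folds actin and tubulin, and prefoldin, which feeds it, had 13 of 14 tested genes with negative log2 fold changes (median -0.28). Negative values were found in 4735 of all 12072 tested genes. Of the 14, 2 passed the threshold, Cct3 (-0.64, adjusted p = 0.0199) and Cct6a (-0.60, adjusted p = 0.0217), in a direction called for 5.04% of tested genes. Other mitochondrial chaperones and proteases lay on both sides of 0. Over 15 tested genes the log2 fold changes ran from -0.59 to 0.56 with a median of -0.08, with 9 below and 6 above 0. Past the threshold 1 was lower (Dnajc19, a subunit of the import motor, -0.55, adjusted p = 0.0444) and 1 higher (Grpel2, a nucleotide exchange factor, 0.56, adjusted p = 0.0412). Of all tested genes 5.04% were lower and 3.82% higher. Whether the chaperonin genes differ from these genes was not tested.

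The other small heat shock genes lay on the same side as Hspb1 in their values. All 6 tested genes had positive log2 fold changes, from 0.24 to 1.18 with a median of 0.71. Positive values were found in 7337 of all 12072 tested genes. Of the 6, 0 passed the threshold in limma, and 2 had an unadjusted p under 0.05, beside 18.4% of tested genes in that direction. With the smooth muscle covariate the median was -0.01, with 3 genes above and 3 below 0. It was 0.32 with array quality weights (5 above and 1 below) and 0.32 without BBR mouse 3. The largest value belonged to Cryab, named after its value was seen, at 15.59, 26.26 and 33.46 FPKM with BBR against 7.18, 12.37 and 11.14 FPKM with SASP (adjusted p = 0.0560). Several of these genes are known for expression in muscle, and the muscle markers moved with them as given above. Of the 2 tested genes among other heat shock factors and the HSF1-binding protein gene, 0 passed, and 1 had an unadjusted p under 0.05.

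**Figure D5:**
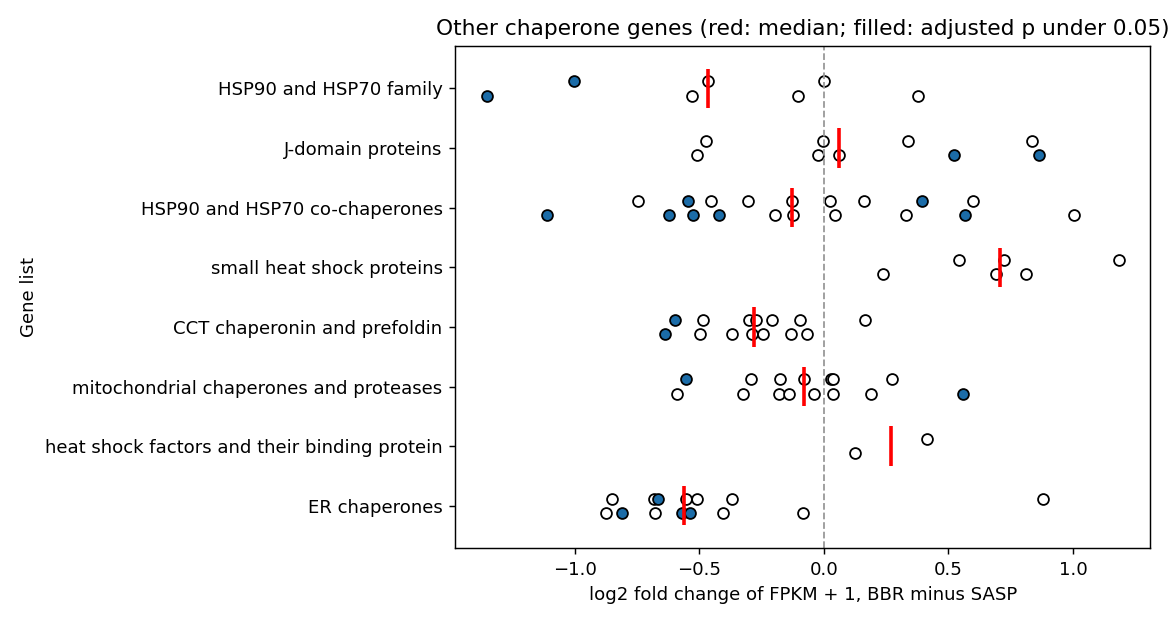
Log2 fold changes of FPKM + 1 (BBR minus SASP) of the tested genes in 8 other chaperone lists, 1 point per gene, filled where the adjusted p was under 0.05, with the list median in red. ER chaperones centre on -0.56 and CCT and prefoldin genes on -0.28, while small heat shock genes lie from 0.24 to 1.18.

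Chaperones of the endoplasmic reticulum, which answer to a separate stress pathway, were set beside the heat shock genes. Of 14 tested genes 4 were lower and 0 higher past the threshold, where 5.04% and 3.82% of all tested genes were. With the muscle covariate 0 passed and 10 had an unadjusted p under 0.05, where 0.157% and 16.7% of all tested genes did. The median was -0.56, close to the median of -0.60 of the 10 heat shock genes. Hsp90b1, the HSP90 of the endoplasmic reticulum, was lower in BBR by 0.81 (adjusted p = 0.0260), Pdia4 by 0.54 (0.0260) and Sdf2l1 by 0.67 (0.0327). Without BBR mouse 1, 2 or 3 the count was 1 (higher in BBR), 0 or 13 (12 lower and 1 higher). It was 0 without any 1 of the SASP mice. In each of these fits 12 to 13 genes had an unadjusted p under 0.05. Without BBR mouse 3, 4018 of all 11878 tested genes passed. Serpinh1, a collagen chaperone that is also a heat shock gene, was the 1 gene of the list with a positive value, at 0.88 (adjusted p = 0.0504), and was named after its value was seen. Immediate early genes, which respond within minutes to many stimuli, gave 1 call of 8 tested genes, beside 8.86% of all tested genes. It was Ier2, higher in BBR (0.54, adjusted p = 0.0350). All 8 had positive log2 fold changes (median 0.51), where 7337 of the 12072 tested genes did. At an unadjusted p under 0.05 there were 3, all higher, beside 18.4% of tested genes in that direction.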

How the data were processed

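The deposited table held FPKM values per gene and mouse (fragments scaled by transcript length and library size), calculated by the authors with RSEM 1.2.12 after Bowtie2 2.2.5, with mm9 named in the submitters' processing notes. The methods describe rRNA depletion and DNA nanoball sequencing of short single reads and the labels an Illumina kit, and the annotation is not given in the sources used here. RSEM divides reads that fit several genes. Of the 50-base words of the longest GENCODE M21 transcript, 73.2% in Hspa8, 58.5% in Hsp90aa1, 51.6% in Hspb1, 44.8% in Hspd1 and 36.1% in Hspe1 also occur in transcripts of other genes, so these levels carry that uncertainty.

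Groups followed the treatment label. Mouse numbers follow accession order and pair no mice, and the labels do not identify animals, so the p-values measure the spread between these samples. The filter kept the 12072 genes that reached 1 FPKM in 3 or more of the 6 samples. They were tested on log2(FPKM + 1), which understates changes of low genes, with limma 3.58.1 (R 4.3.3; empirical Bayes with a mean-variance trend, two-sided, Benjamini-Hochberg over all tested genes, threshold 0.05). Named genes were the 10 members, up to 3 called genes per chaperone list and the 3 genes most like Hsph1 and Hspd1. Beyond that rule Hsp90ab1 is named for its ratio to Hsp90aa1, Unc45a and Stub1 as the 2 higher co-chaperones, and Cryab and Serpinh1 after their values were seen. Single marker genes and Ier2 are named as examples or for their values. Members and lists were chosen with earlier results of these data known.

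Depth is not stated by the files. Taking the typical value of short genes seen in 1 sample only as 1 read gave about 16400000 to 18200000 reads per sample, so the lowest member value (Hspa1a in SASP mouse 1) rests on about 209 reads. Across genes, log2 values of BBR mouse 3 correlated with BBR mice 1 and 2 at 0.953 and 0.949, where those 2 mice gave 0.987 and SASP mice gave 0.982 to 0.989. Marker genes of epithelium were present in all mice (sums of 7505 to 10054 FPKM), with 1 of 10 higher (Cdx2) and 1 lower (Vil1) past the threshold. Stromal markers summed to 307 to 415 FPKM in BBR and 149 to 243 FPKM in SASP mice (3 of 8 higher past the threshold), and leukocyte markers to 298 to 625 and 465 to 640 FPKM (1 of 6 tested lower). Alternatives covered filter, pseudocount, scaling, variance model, weights, a muscle covariate, the study's unadjusted threshold and each mouse left out.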

Additional observations from a re-analysis of the deposited data

How the results depend on the processing

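The 3 heat shock genes past the threshold became 7 with array quality weights, 8 at the study's unadjusted threshold and 0 with the smooth muscle covariate (6 at an unadjusted p under 0.05), and ranged from 0 to 6 when 1 mouse was left out, with 5 to 7 genes at an unadjusted p under 0.05. The other alternatives, which changed the filter, pseudocount, scaling or variance trend, gave 2 or 3. Of the wider chaperone genes, 15 passed, against 8 with no filter, 45 with array quality weights, 0 with the covariate (12 unadjusted), 34 at the unadjusted threshold and 0 to 30 with 1 mouse left out. Over all genes 1069 passed, against 608 with no filter, 1737 with quantile normalization, 1684 with median-ratio scaling, 7126 with array quality weights, 19 with the covariate, 3837 at the unadjusted threshold and 51 to 4018 with 1 mouse left out. The share of calls that were higher in BBR was 43.1%. It was 10.5% with the covariate, 58.0% at the unadjusted threshold, 65.1% with array quality weights and 11.8% to 65.9% with 1 mouse left out. With median-ratio scaling, which moved the median log2 fold change of all genes from 0.10 to -0.02, it was 29.6% (498 higher and 1186 lower, against 461 and 608). Among the left-out mice, BBR mouse 3 gave the highest of each of these counts. With the covariate a degree of freedom is lost, and otherwise the cause was not tested.

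Directions of 8 of the 10 heat shock genes held in all alternatives, although Hspa1b was as low as 0.04 with array quality weights. Hspa1a was -0.30 with array quality weights and -0.20 with the covariate. Hsf1 was -0.058 with quantile normalization, -0.10 with median-ratio scaling and -0.028 with array quality weights, and ranged from -0.072 to 0.14 with 1 mouse left out. Hspd1 also lost its call with no filter. Over left-out mice the log2 ratio difference ranged from -0.70 to -0.16 for Hsp90aa1 over Hsp90ab1, from -0.17 to 0.16 for Dnajb1 over Hspa8 and from -0.13 to 0.23 for Hsph1 over Hspa8. No paired analysis was possible because the labels give the mice of both groups no shared numbers. The tests of 3 against 3 ratios cannot pass 0.05.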
